A study of Homo sapiens with 48 samples.

Results

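The 9 transcription factors of the pancreatic lineage SOX9, PDX1, HNF4A, GATA4, GATA6, FOXA1, FOXA2, FOXA3 and PTF1A were followed in RNAseq of PSN1 cells, an established line of pancreatic cancer cells. They were chosen by symbol from the 20241 genes of the normalized table, and all 9 had a row in it. The libraries came from parental cells (genotype WT, no treatment, labelled day 0), from TalaR-M cells with acquired Talazoparib resistance kept in 50 nM Talazoparib (labelled 4 months) and from TalaR-DF cells, grown from the selected cells in media without the drug (labelled no treatment, day 0), which makes 9 libraries of 3 replicates a group. Talazoparib inhibits PARP, the enzyme that marks broken DNA with poly(ADP-ribose), and TalaR-DF cells carry the same selection history as TalaR-M cells. TalaR-DF cells are not taken as resistant here, since the files hold no measure of drug sensitivity, which may return after withdrawal, so a change shared by both TalaR groups does not follow resistance by itself. Each TalaR group comes from a single cell line, and no label says that the replicates were separate cultures, so the p-values may measure technical spread only.

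In the embryo, FOXA factors open chromatin in the gut tube, where GATA4 and GATA6 act with them, and PDX1, PTF1A and SOX9 mark the progenitors of the pancreas. Later, PTF1A drives acinar cells, PDX1 is kept mainly in beta cells and SOX9 in duct cells, and HNF4A switches on genes of liver, gut and pancreatic epithelium. In pancreatic cancer, GATA6 and HNF4A are known as markers of the classical, more epithelial subtype.

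Relative to parental cells, FOXA2 fell and FOXA1 rose in TalaR-M cells and, after drug withdrawal, in TalaR-DF cells, which are 2 of the 5 factors detected in every group, where 13.3% and 9.73% of all genes tested were called. HNF4A was detected in parental cells but in no TalaR library, while FOXA3 was detected in TalaR-M cells but in no other group. GATA4 and GATA6 were not called in any comparison, SOX9 was lower than in parental cells by less than 2-fold, and PDX1 and PTF1A were at 0 in all 9 libraries. Expression is given as log2 CPM, the log2 of the read count of a gene scaled to an effective library size (CPM), in which a value of 0 stands for at most 1 CPM. The 12471 genes above 1 CPM in at least 3 libraries, 7 of the 9 factors among them, were compared in a limma model, and a gene was called where its p adjusted by Benjamini-Hochberg was under 0.05 and its change 2-fold or more. All adjusted p-values below come from limma over these genes. In bulk RNA, fewer cells that express a gene cannot be told apart from less RNA of it per cell.

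TalaR-M replicate 2 stood apart from the other libraries. It correlated at 0.78 with TalaR-M replicates 1 and 3 across genes, which correlated at 0.994 with each other, and it was the shallowest library, with 8387755 reads on genes above 1 CPM against 12213605 to 14973847 in the others. In it, 43.55% of the genes tested lay more than 1 on the log2 scale from the mean of the other TalaR-M libraries. The deviation moved with the length of the transcript. Its median was 0.825 for the 2632 genes with a canonical transcript under 2 kilobases, 0.0 for 2322 genes of 2 to 3 kilobases, -0.479 for 1947 genes of 3 to 4 kilobases and -1.037 for 4789 longer genes. Among the factors, the short FOXA3 (1.92 kilobases) and FOXA2 (2.54 kilobases) were higher in this library by 0.992 and 0.421, whereas SOX9, GATA4 and FOXA1, with transcripts between 3.42 and 3.93 kilobases, deviated by -1.012, -0.967 and -1.407 and GATA6 (3.62 kilobases) by -0.396. All but GATA6 of these lay further from 0 than the median of their length class. The results on the 9 factors that involve TalaR-M cells are therefore also given without this library, and those on other genes where stated. Its part in those results beyond these values was not tested.

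**Figure D1:**
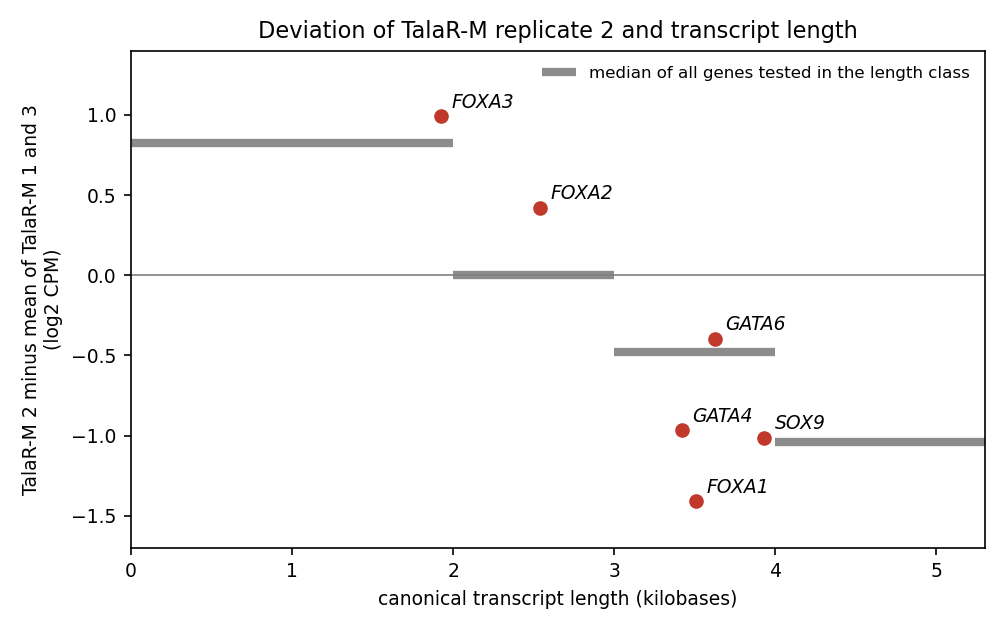
Deviation of TalaR-M replicate 2 from the mean of the other TalaR-M libraries (y axis, log2 CPM) against canonical transcript length (x axis, kilobases). Grey bars give the median of all genes tested in 4 length classes and red points the 6 factors with a value in TalaR-M cells, of which the 2 shortest lie above 0 and the other 4 below it.

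The bases before the start sites of the 3 called factors that have an entry in the RefSeq promoter table (GRCh38.p14) are shown because these are the genes whose transcript levels moved. FOXA2 was not matched, nor were SOX9, PDX1, GATA4 and PTF1A, and GATA6 was matched but not called. Each run ends at the base before the RefSeq start site, except that of FOXA1, which ends 100 bases before it. For FOXA1 and FOXA3 the RefSeq start lies inside the gene at its GENCODE position given below. Their runs are thus not upstream of the whole annotated gene, whereas that of HNF4A ends just before its GENCODE start. Distances of motifs are counted from the RefSeq start. Bases within an exon of another transcript of the same gene were left out, 99 for FOXA1 and 116 for FOXA3. Capitals mark motifs searched on both strands, which were AGATAA for GATA factors, ACAAAG for SOX factors and TATAAA for the TATA box.
HNF4A, chr20:44355449-44355698, plus strand: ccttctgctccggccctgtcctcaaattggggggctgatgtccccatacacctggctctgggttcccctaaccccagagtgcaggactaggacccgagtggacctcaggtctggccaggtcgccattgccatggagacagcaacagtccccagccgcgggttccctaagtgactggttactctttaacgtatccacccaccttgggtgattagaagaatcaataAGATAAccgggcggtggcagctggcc
FOXA1, chr14:37595349-37595499, minus strand: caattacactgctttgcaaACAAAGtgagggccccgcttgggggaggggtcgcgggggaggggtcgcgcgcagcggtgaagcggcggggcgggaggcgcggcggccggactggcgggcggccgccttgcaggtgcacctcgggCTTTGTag
FOXA3, chr19:45864192-45864325, plus strand: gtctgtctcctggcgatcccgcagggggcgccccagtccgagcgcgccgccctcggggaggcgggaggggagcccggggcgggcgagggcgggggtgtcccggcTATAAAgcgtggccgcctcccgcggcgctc
HNF4A holds 1 GATA motif, 26 bases before its start. FOXA1 holds SOX motifs 231 and 107 bases before its start, the second on the other strand, and another at 89 bases that lies in the part not shown. FOXA3 holds a TATA box 30 bases before its start. Among 27305 promoters of the table, 9.37% held AGATAA, 13.67% ACAAAG and 11.13% TATAAA in the 250 bases before the start. The FOXA motif TGTTTAC (2.98% of promoters) and the HNF4 motif CAAAGTCCA (0.29%) were in none of the 4 windows matched. None of the motifs overlapped another here, and a match is a run of letters and not a measured site.

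The genes lie at 17:72121020-72126416 (SOX9), 13:27920000-27926313 (PDX1), 20:44355699-44432845 (HNF4A), 8:11676959-11760002 (GATA4), 18:22169589-22202528 (GATA6) and 10:23192312-23194245 (PTF1A) of GRCh38 in the GENCODE annotation, all on the plus strand. FOXA1 lies at 14:37589552-37596059 and FOXA2 at 20:22580998-22585455 on the minus strand, and FOXA3 at 19:45863989-45873797 on the plus strand. Antisense RNAs overlap SOX9, HNF4A and GATA6, and TTC6 overlaps FOXA1 on the opposite strand. The libraries were made with a strand-specific kit. Whether the reads were then counted by strand is not given in the sources used here, so reads of such a pair may not have been told apart, although TTC6 itself was at 0 in all 9 libraries.

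FOXA2, a forkhead factor of the gut tube that is kept in adult liver, gut and pancreas, fell in both TalaR groups and further in TalaR-M than in TalaR-DF cells. Its expression was 4.61, 4.63 and 4.67 log2 CPM in the parental libraries, 1.16, 1.45 and 0.89 in TalaR-M replicates 1 to 3, and 2.81, 2.35 and 2.40 in TalaR-DF replicates 1 to 3. The 3 groups did not overlap, with TalaR-DF cells between the others. In reads, these levels rest on 336 to 358 per parental library, 20 to 34 per TalaR-M library and 66 to 101 per TalaR-DF library. FOXA2 fell by 3.47 on the log2 scale (standard error 0.19, adjusted p = 6.12e-06), or 11.1-fold, from parental to TalaR-M cells. In TalaR-DF cells it fell by 2.12 (standard error 0.19, adjusted p = 0.000145), or 4.34-fold. TalaR-M cells were also lower than TalaR-DF cells, with a difference of -1.35 (standard error 0.19, adjusted p = 0.00314). Without TalaR-M replicate 2, the difference between TalaR-M and parental cells was -3.61 and that between TalaR-M and TalaR-DF cells -1.49.

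FOXA1, the close relative of FOXA2 that also works in breast and prostate epithelium, moved the other way. It was at 0.59, 0.85 and 0.92 log2 CPM in parental cells, 3.10, 1.70 and 3.12 in TalaR-M cells, and 2.65, 2.29 and 2.40 in TalaR-DF cells. Every TalaR library was above every parental one, and the lowest TalaR value was that of TalaR-M replicate 2. Parental levels rest on only 21 to 24 reads per library, close to the 12.21 to 13.6 reads that 1 CPM stands for. From parental to TalaR-M cells FOXA1 rose by 1.86 (log2 scale, standard error 0.36, adjusted p = 0.00719) and to TalaR-DF cells by 1.66 (standard error 0.36, adjusted p = 0.0144). Without TalaR-M replicate 2, these values were 2.33 (adjusted p = 1.52e-07) and 1.66 (adjusted p = 1.03e-06). The TalaR-DF call was lost when parental replicate 1 or 2 or TalaR-DF replicate 1 or 3 was left out, with adjusted p between 0.0512 and 0.0644 and differences between 1.56 and 1.69. TalaR-M and TalaR-DF cells differed by 0.20 (95% confidence interval -0.63 to 1.03), and leaving out TalaR-M replicate 2 the difference was 0.67 (adjusted p = 0.00393), short of 2-fold.

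FOXA3, the forkhead relative best known from liver, was at 0 in the 3 parental and the 3 TalaR-DF libraries. In TalaR-M replicates 1 to 3 it was at 1.28, 2.02 and 0.78 log2 CPM, which rest on 37, 30 and 23 reads. All 3 TalaR-M libraries were thus above the limit of 1 CPM and all other libraries at or under it. Relative to parental cells and to TalaR-DF cells alike, TalaR-M cells were at least 2.56-fold higher for FOXA3. The mean of the TalaR-M libraries was 1.36 ± 0.63 log2 CPM (SD, n = 3), and the difference was 1.03 when TalaR-M replicate 2 was left out. FOXA3 passed the filter through the TalaR-M libraries alone and the other groups show no spread at the limit of 1 CPM, so its call is given as a description, without a p-value. The call against TalaR-DF cells was lost when any 1 of the 3 TalaR-DF libraries was left out.

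**Figure D2:**
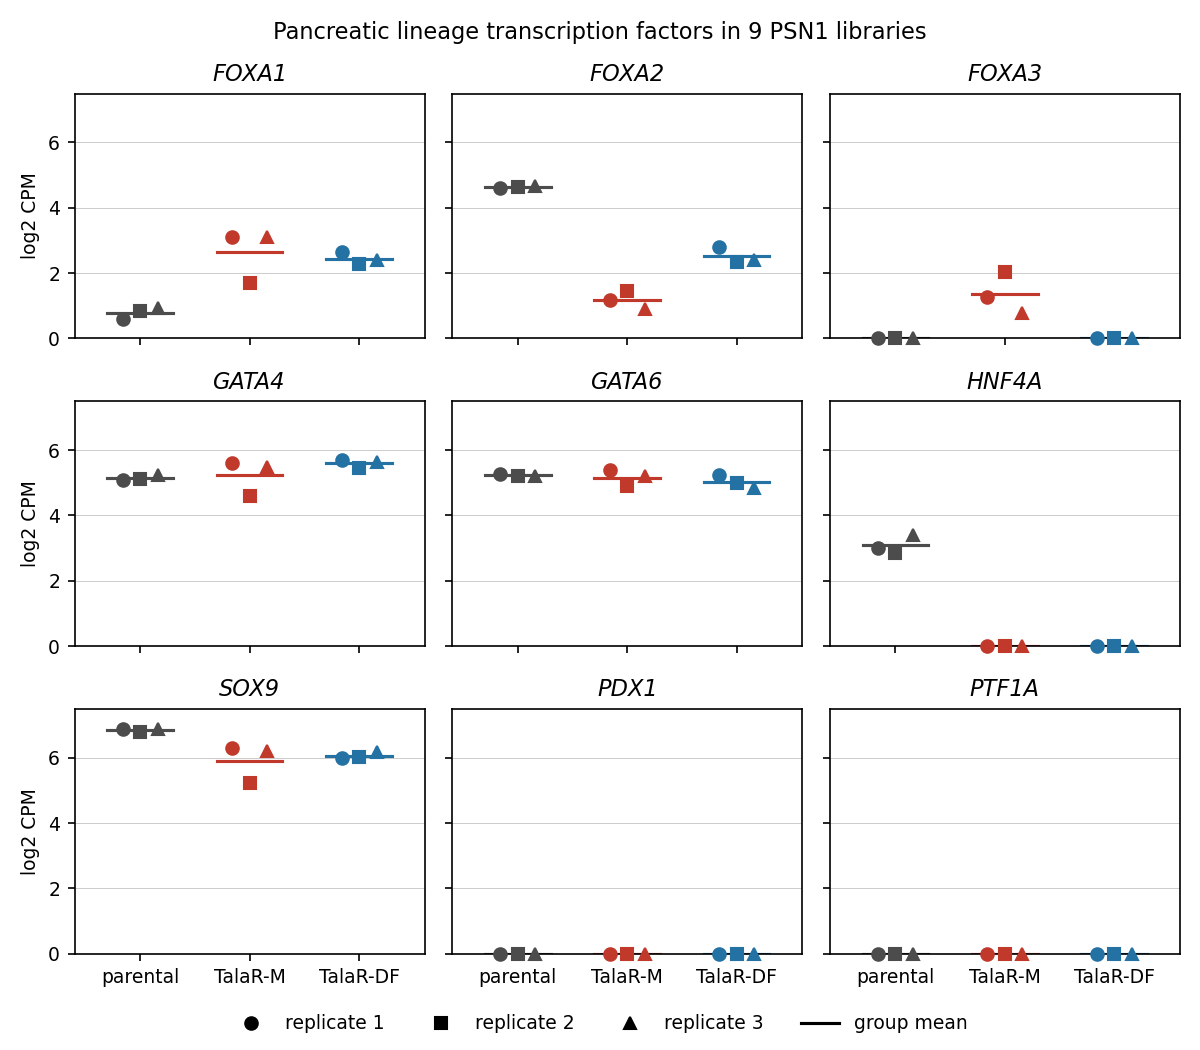
Expression (log2 CPM, y axis) of the 9 factors in each of the 9 libraries, grouped as parental, TalaR-M and TalaR-DF cells (x axis). Marker shape gives the replicate and the line the group mean; FOXA2 and HNF4A are highest in parental cells, FOXA1 lowest there, FOXA3 is above 0 in TalaR-M cells, and PDX1 and PTF1A stay at 0.

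Divided by transcript length, so that the FOXA genes can be set beside each other, FOXA2 was the main FOXA transcript of parental cells, at 9.81 ± 0.23 CPM per kilobase (SD, n = 3) against 0.494 ± 0.058 for FOXA1. FOXA2 made up between 94.91% and 95.74% of the summed FOXA level in the parental libraries with FOXA3 taken as 0, and between 90.41% and 91.03% with FOXA3 at its limit of 1 CPM, or 0.52 CPM per kilobase. In the TalaR-DF libraries it made up between 58.03% and 60.78%, or 50.69% and 54.54% with FOXA3 at that limit, and 19.19%, 26.14% and 17.84% in TalaR-M replicates 1 to 3, where FOXA3 was measured. FOXA1 exceeded FOXA2 in TalaR-M replicates 1 and 3, and FOXA3 was the largest of them in replicate 2. The summed level was 10.3 ± 0.28 CPM per kilobase in parental cells, 4.27 ± 0.28 for TalaR-M cells and 3.84 ± 0.62 for TalaR-DF cells (SD, n = 3), with FOXA3 taken as 0 where it was under 1 CPM. Neither TalaR group reached the parental sum in any library, and the ranges of the TalaR groups overlapped. These sums and shares were chosen after the values were seen and were not tested.

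**Figure D3:**
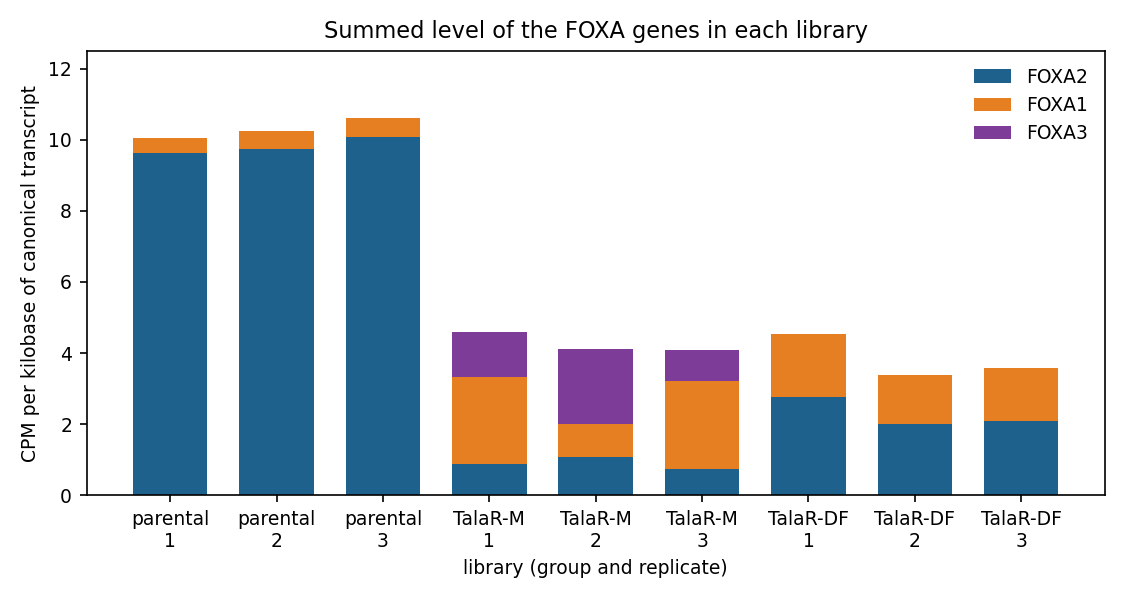
Level of FOXA2, FOXA1 and FOXA3 in each library, stacked, in CPM per kilobase of canonical transcript (y axis) for the 9 libraries (x axis). Parental bars reach between 10.1 and 10.6 and are mostly FOXA2, and the 6 TalaR bars reach between 3.40 and 4.60.

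HNF4A, a nuclear receptor of liver, gut and pancreatic epithelium, was detected in parental cells alone. Its values were 2.99, 2.86 and 3.39 log2 CPM in parental replicates 1 to 3, from 116, 100 and 137 reads. It was at 0 in the 3 TalaR-M libraries and the 3 TalaR-DF libraries, so the groups did not overlap. Against parental cells HNF4A was at least 8.45-fold lower in both states. It passed the filter through the parental libraries alone and the TalaR libraries show no spread at the limit of 1 CPM, so its call is given as a description, without a p-value. TalaR-M and TalaR-DF cells cannot be set against each other for this gene, since both lie under 1 CPM.

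GATA4 and GATA6, zinc finger factors of the early endoderm, were close to each other in level in parental cells, at 10.4 CPM per kilobase each. GATA6 was at 5.28, 5.21 and 5.20 log2 CPM in parental cells, 5.38, 4.89 and 5.19 in TalaR-M cells and 5.24, 4.99 and 4.83 in TalaR-DF cells, and each pair of groups overlapped. The difference of GATA6 from parental cells was -0.08 in TalaR-M cells (95% confidence interval -0.47 to 0.32) and -0.21 in TalaR-DF cells (-0.60 to 0.18), and without TalaR-M replicate 2 the former was 0.06. Its intervals thus end short of a 2-fold change in both directions. GATA4 was at 5.09, 5.12 and 5.23 log2 CPM in parental cells, 5.61, 4.58 and 5.48 in TalaR-M cells and 5.71, 5.45 and 5.62 in TalaR-DF cells. All TalaR-DF libraries and TalaR-M replicates 1 and 3 were above the parental ones, and TalaR-M replicate 2 was below them. GATA4 differed from parental cells by 0.08 in TalaR-M cells (adjusted p = 0.834) and by 0.45 in TalaR-DF cells (adjusted p = 0.311). Without TalaR-M replicate 2, these differences were 0.40 (adjusted p = 0.00231) and 0.45 (adjusted p = 0.000463), both under 2-fold. TalaR-M and TalaR-DF cells differed by -0.37 for GATA4 (95% confidence interval -0.96 to 0.23) and by 0.13 for GATA6 (-0.26 to 0.53), and leaving out TalaR-M replicate 2 these differences were -0.044 and 0.26. Per length of transcript, the level of GATA6 relative to that of GATA4 was 0.928 to 1.08 in the parental libraries, 0.802, 1.17 and 0.771 in TalaR-M replicates 1 to 3 and 0.543 to 0.689 in the TalaR-DF libraries, a ratio that was chosen after the values were seen and was not tested.

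SOX9, a factor of pancreatic progenitors and duct cells, had the highest level of the 9 per length of transcript in every group, 29.2 ± 1.1 CPM per kilobase in parental cells (SD, n = 3). It was at 6.88, 6.78 and 6.87 log2 CPM in parental cells, 6.30, 5.24 and 6.20 in TalaR-M cells and 6.004, 6.03 and 6.17 in TalaR-DF cells. Every TalaR library was below every parental library. The difference from parental cells was -0.93 in TalaR-M cells (adjusted p = 0.0353) and -0.78 in TalaR-DF cells (adjusted p = 0.0792), and neither was called. Leaving out TalaR-M replicate 2 gave -0.59 (adjusted p = 2.08e-05) and -0.78 (adjusted p = 8.08e-07), and leaving out TalaR-M replicate 1 or 3 took the former past 2-fold, to -1.12 and -1.07. TalaR-M and TalaR-DF cells differed by -0.15 (adjusted p = 0.688) with all libraries, and the value was 0.18 (adjusted p = 0.0478) when TalaR-M replicate 2 was left out. PDX1 and PTF1A, the factors that specify the pancreas itself, were listed at 0 in every library, so that no amount above 1 CPM, or 6.97 to 14.54 reads depending on the library, was detected.

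Among all 12471 genes tested, 13.3% were called between TalaR-M and parental cells, 5.53% higher and 7.72% lower in TalaR-M cells. Of the 7 factors tested, 4 were called, with FOXA1 and FOXA3 higher and FOXA2 and HNF4A lower. Between TalaR-DF and parental cells 9.73% of genes were called, 2.25% higher and 7.49% lower in TalaR-DF cells, and 3 factors were called, FOXA1 higher and FOXA2 and HNF4A lower. Setting TalaR-M against TalaR-DF cells, 6.93% of genes were called, 5.29% higher and 1.64% lower in TalaR-M cells, and 2 factors were called, FOXA3 higher and FOXA2 lower. The comparisons share libraries and are not independent of each other. The same factors were called in the same direction without TalaR-M replicate 2, where 13.9%, 11.4% and 8.36% of all genes were called. HNF4A and FOXA3 passed the filter through a single group, so their calls cannot be read against these shares, and the 7 factors tested are not all 9 factors. Of the other 5 factors tested, FOXA1 and FOXA2 were called in both comparisons with parental cells and FOXA2 between TalaR-M and TalaR-DF cells.

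**Figure D4:**
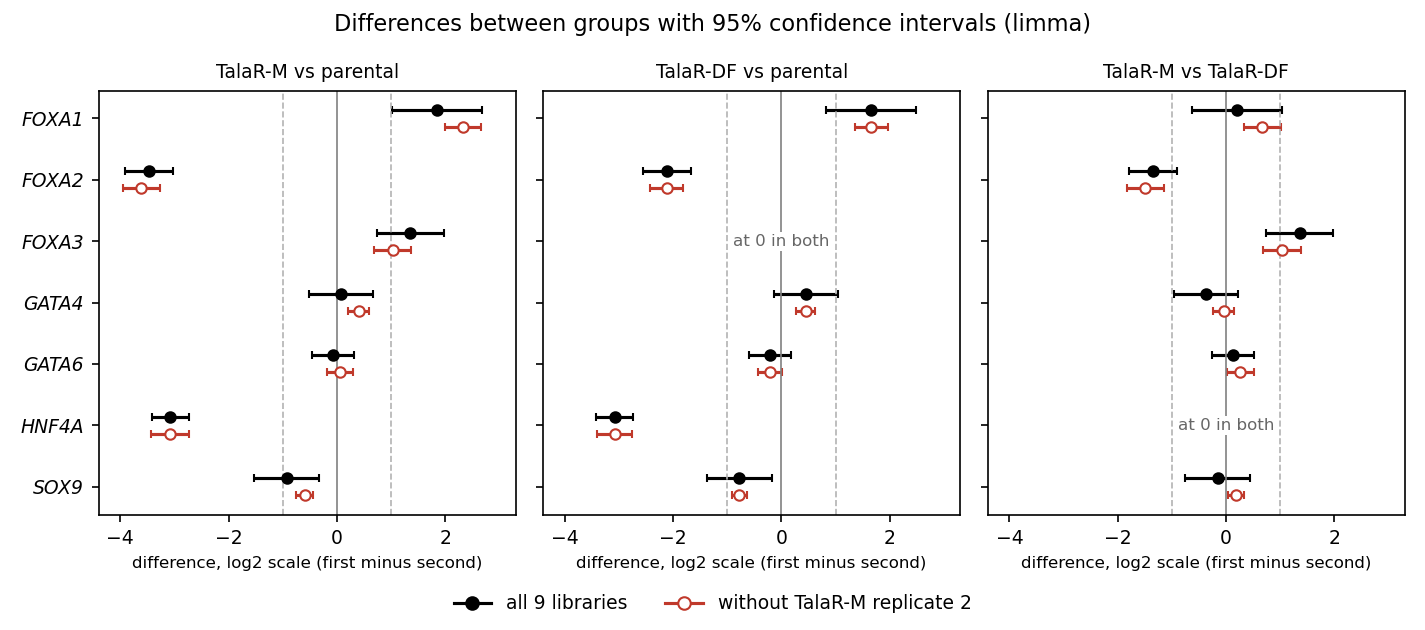
Difference between groups on the log2 scale (x axis, first group minus second) for the 7 factors tested (y axis) in 3 comparisons, with 95% confidence intervals from limma; black points use all 9 libraries and open red points leave out TalaR-M replicate 2. Dashed lines mark a 2-fold change; FOXA2 and HNF4A lie beyond it on the left in both comparisons with parental cells and FOXA1 on the right.

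Of 20 other transcription factors of the foregut and pancreatic progenitors, 10 were tested and 9 were at 0 in all libraries. TCF7L2 and MEIS2 fell by 1.07 and 1.73 in TalaR-M cells, with an adjusted p of 0.0222 and 0.0108, ELF3, an epithelial factor, fell by 1.23 in TalaR-DF cells (adjusted p = 0.0124), and none was called higher. These are 2 and 1 of 10 genes, near the 13.3% and 9.73% of all genes called. Without TalaR-M replicate 2 the TCF7L2 value was -0.73 and was not called, while MEIS2 stayed called at -1.23. The median difference of the 10 relative to parental cells was -0.27 for TalaR-M cells and -0.25 for TalaR-DF cells, against -0.09 and 0.01 over all genes tested. Of 8 close relatives of the factors, 3 were tested. GATA3 was at 2.82 ± 0.31 log2 CPM in parental cells, 3.23 ± 0.08 for TalaR-M cells and 1.03 ± 0.49 for TalaR-DF cells (SD, n = 3), called lower in TalaR-DF cells than in the others (adjusted p = 0.00217 against parental cells and 0.00129 against TalaR-M cells). SOX8 fell by 1.02 in TalaR-DF relative to parental cells, and GATA2 was not called.

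Of 6 acinar transcription factors, which work beside PTF1A, 5 were tested and 2 fell in TalaR-M cells, where 7.72% of all genes were called lower against parental and 1.64% against TalaR-DF cells. NR5A2, a nuclear receptor of acinar cells, and BHLHA15, a factor of secretory cells, differed from parental cells by -2.02 and -1.95 (adjusted p = 0.00096 and 0.0158) and from TalaR-DF cells by -1.29 and -1.69 (adjusted p = 0.0175 and 0.046). NR5A2 was at 4.75 ± 0.09 log2 CPM in parental cells, 2.73 ± 0.58 for TalaR-M cells and 4.02 ± 0.05 for TalaR-DF cells (SD, n = 3). No acinar factor was called between TalaR-DF and parental cells. BHLHA15 was at 0 in TalaR-M replicate 2 and at 1.81 and 1.71 in replicates 1 and 3. Without that replicate NR5A2 and BHLHA15 were called against parental cells at -1.69 and -1.36, and NR5A2 was no longer called against TalaR-DF cells, at -0.96, while BHLHA15 was at -1.10. The enzymes that acinar cells secrete were nearly absent. Of the 28 with a row, 23 were at 0 in all libraries and 4 were tested. Of these 4, PRSS1 was called lower in TalaR-DF than in parental cells and CPA1 higher in TalaR-M than in TalaR-DF cells. Over all genes tested, 7.49% were called lower in the first of these comparisons and 5.29% higher in the second. When TalaR-M replicate 2 was left out, PRSS1 was called lower in TalaR-M cells too. PRSS1 was at 0 in 2 of the 3 TalaR-M and all 3 TalaR-DF libraries and met the filter through parental cells. CPA1, at 0 in all 3 TalaR-DF libraries, could be called only higher against them. The calls of both are therefore a description and cannot be read against these shares. The most abundant acinar enzyme was the trypsinogen PRSS3, at 4.18 ± 0.10 log2 CPM in parental cells (SD, n = 3), which was called lower in TalaR-M cells, at -1.31, when replicate 2 was left out but not with all libraries (-0.80).

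Genes of liver and gut epithelium, many of them textbook targets of HNF4A and FOXA factors, were mostly under 1 CPM, with 15 of 20 at 0 in all libraries and 4 tested. Of these 4, 3 were called lower in both TalaR groups, where 7.72% (TalaR-M) and 7.49% (TalaR-DF) of all genes were, and 2 of the 3, FGG and MUC13, passed the filter through parental cells alone. SERPINA1, which encodes alpha-1 antitrypsin, was at 6.58, 6.49 and 6.40 log2 CPM in parental cells, 4.76, 5.37 and 4.56 in TalaR-M cells and 3.85, 3.65 and 3.69 in TalaR-DF cells. The groups did not overlap, and SERPINA1 differed from parental cells by -1.59 in TalaR-M cells (adjusted p = 0.00103) and by -2.76 in TalaR-DF cells (adjusted p = 5.25e-05), the former being -1.83 without TalaR-M replicate 2. It was higher in TalaR-M than in TalaR-DF cells by 1.17 (adjusted p = 0.00976), or 0.93 and not called without TalaR-M replicate 2. FGG, a chain of fibrinogen, and MUC13, a mucin of the gut surface, were at 2.51 ± 0.35 and 1.74 ± 0.20 log2 CPM in parental cells (SD, n = 3) and at 0 in all 6 TalaR libraries. In the summed level of the list, SERPINA1 took 84.6 to 95.4 of the 93.6 to 108 CPM of a parental library.

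Among 24 genes of the classical subtype of pancreatic cancer, 7 were tested and 17 were at 0 in every library. The trefoil factors TFF1, TFF2 and TFF3, peptides of the mucous epithelium, were called lower in both TalaR groups. Over all genes tested, 7.72% were called lower for TalaR-M cells and 7.49% for TalaR-DF cells. TFF1 was at 0 in 2 of the 3 TalaR-M and all 3 TalaR-DF libraries and met the filter through parental cells. Its calls are a description and cannot be read against these shares. TFF3 was at 4.67 ± 0.09 log2 CPM in parental cells and 0.98 ± 0.43 in TalaR-DF cells (SD, n = 3), and at 0.79, 3.14 and 0.71 in TalaR-M replicates 1 to 3, a difference from parental cells of -3.12 with and -3.91 without replicate 2. TSPAN8, a tetraspanin of the epithelial surface, was called higher in both TalaR groups, where 5.53% (TalaR-M) and 2.25% (TalaR-DF) of all genes were. Of 24 basal-like genes, 11 were tested. In TalaR-M cells CTSV and ANXA8L1 were called higher than in parental cells and DHRS9, FAM83A and SLC2A1 lower. In TalaR-DF cells CTSV was called higher and 5 genes lower, DHRS9, KRT15, FAM83A, KRT7 and SLC2A1. FAM83A passed the filter through parental cells alone and CTSV through the TalaR libraries alone. ANXA8L1, at 0 in parental cells and in 2 of the 3 TalaR-DF libraries, passed it through TalaR-M cells. The calls of these genes against parental cells are a description and cannot be read against the shares over all genes. All 6 basal-like genes called between TalaR-M and TalaR-DF cells were higher in TalaR-M cells, where 5.29% of all genes were called higher and 1.64% lower. The call of ANXA8L1 cannot be read against these shares either. ANXA8L1 and KRT15 were at 0 in 2 and 1 of the 3 TalaR-DF libraries, so their differences are lower bounds. The differences were at least 3.12 for ANXA8L1, 3.07 for S100A2, at least 1.86 for KRT15, 1.75 for KRT7, 1.43 for TNS4 and 1.07 for CTSV. When TalaR-M replicate 2 was left out, they were 3.06, 2.17, 1.65, 1.28, 1.63 and 1.07 in the same order, and S100A2 was also called against parental cells, higher for TalaR-M cells (1.16) and lower for TalaR-DF cells.

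Duct genes, the programme in which SOX9 works, were called in both directions. Of 15 tested, 5 were called higher and 3 lower in TalaR-M than in parental cells, 0 higher and 6 lower in TalaR-DF than in parental cells, and 6 higher and 0 lower in TalaR-M than in TalaR-DF cells. Over all genes tested the shares were 5.53% higher and 7.72% lower, 2.25% and 7.49%, and 5.29% and 1.64% in these comparisons, which lean the same way in the second and the third. CFTR and KCNQ1, counted as higher, passed the filter through TalaR-M cells alone, so these calls cannot be read against the shares. TFF1, counted as lower, met the filter through parental cells, and its calls cannot be read against them either. KRT19, a keratin of duct cells, was at 5.77, 5.80 and 5.83 log2 CPM in parental cells, 7.92, 9.53 and 7.81 in TalaR-M cells and 5.99, 5.77 and 5.73 in TalaR-DF cells. TalaR-M cells lay above all other libraries, by 2.62 relative to parental cells (adjusted p = 0.00233) and by 2.07 without replicate 2. CFTR, the chloride channel of duct cells, and the potassium channel gene KCNQ1 were at 0 in parental and TalaR-DF cells and at 1.57 ± 0.75 and 1.31 ± 0.29 log2 CPM in TalaR-M cells (SD, n = 3). BICC1, an RNA-binding protein of duct cells, was also called higher in TalaR-M cells, by 2.32 relative to parental cells, and by 2.86 without replicate 2, where CFTR and KCNQ1 were still called. SPP1, the secreted osteopontin, was at 3.14 ± 0.16 in parental cells, 0 for TalaR-M cells and 0.67 ± 0.48 for TalaR-DF cells (log2 CPM, SD, n = 3). AQP1, a water channel, fell by 1.78 in TalaR-DF cells and was not called in TalaR-M cells, and MUC1 fell by 1.64 in TalaR-DF cells. The median difference of the 15 relative to parental cells was 0.42 for TalaR-M cells and -0.53 for TalaR-DF cells. Without TalaR-M replicate 2 the counts were 6 and 3, 1 and 6, and 7 and 0 in the same order, with SLC4A4, a bicarbonate transporter, added as higher in each.

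Endocrine genes were few. Of 14 endocrine transcription factors 9 were at 0 throughout and 4 were tested, and INSM1, a zinc finger factor of endocrine progenitors, was the 1 called with all libraries. INSM1 was at 0 in the parental libraries, at 2.37, 0.95 and 2.25 log2 CPM in TalaR-M cells and at 1.63, 1.39 and 1.19 in TalaR-DF cells. It passed the filter through the TalaR libraries alone, so its calls are a description, without a p-value. These counts stand beside 13.3% and 9.73% of all genes called against parental cells. Of 18 islet secretory genes, 5 were tested. SCG2, a secretogranin, rose from 0.86 ± 0.16 log2 CPM in parental cells to 7.15 ± 0.66 in TalaR-M and 4.74 ± 0.07 in TalaR-DF cells (SD, n = 3). CHGB and PCSK1 were called lower in both, where 7.72% (TalaR-M) and 7.49% (TalaR-DF) of all genes were. PCSK1 passed the filter through parental cells alone. CHGB, at 0 in 2 of the 3 TalaR-M and all 3 TalaR-DF libraries, also met it through parental cells. The calls of both are a description and cannot be read against these shares. Without TalaR-M replicate 2, SCG5 was also called lower in TalaR-DF cells, and GLIS3 was called higher in TalaR-M and lower in TalaR-DF cells than in parental cells, and GLIS3 and PAX6 were called higher in TalaR-M than in TalaR-DF cells.

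**Figure D5:**
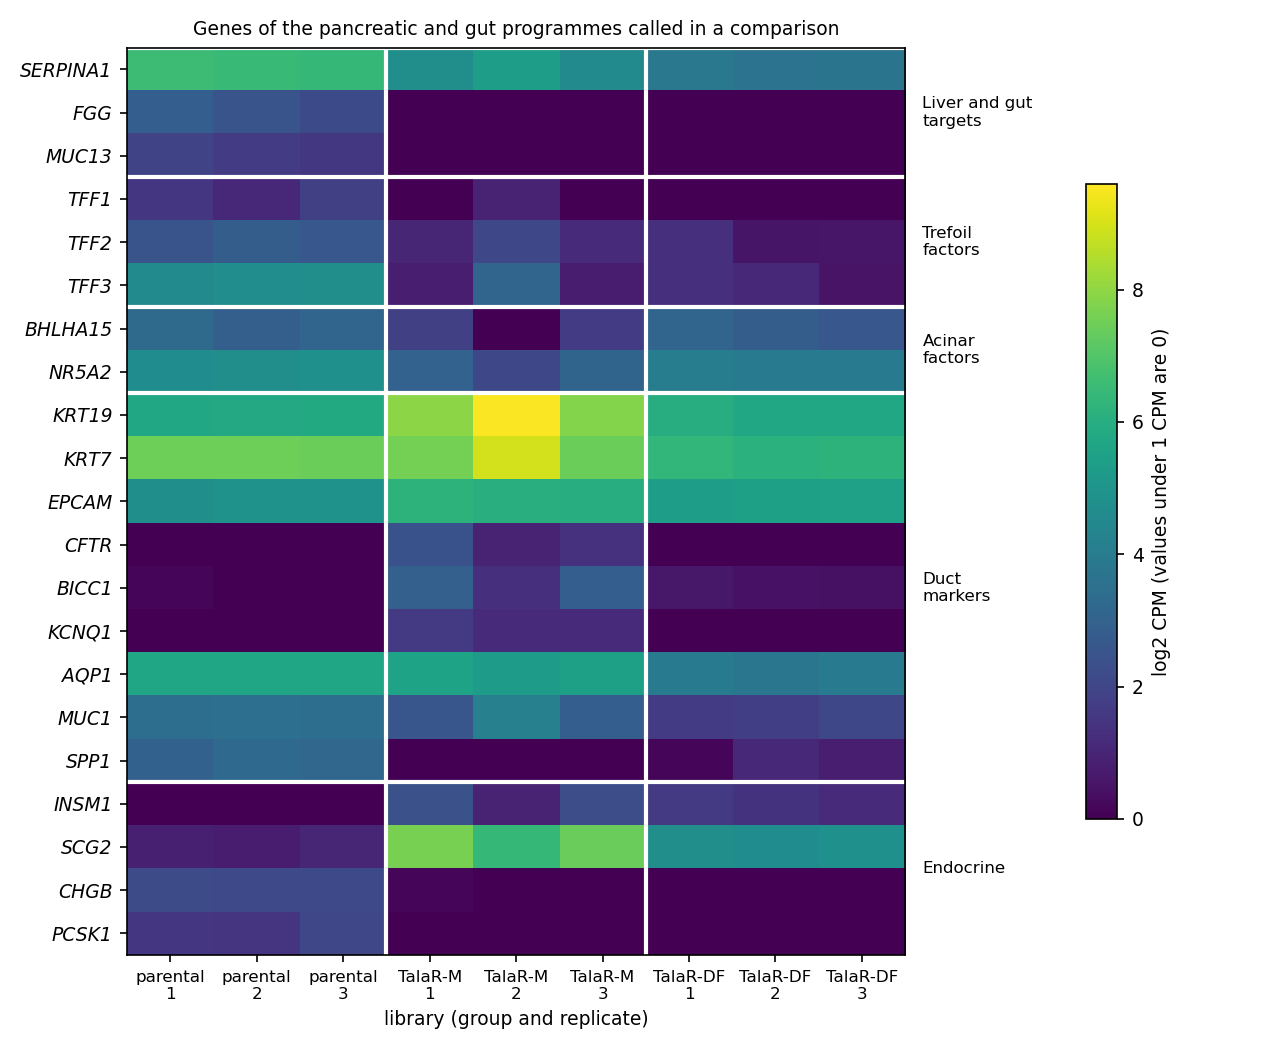
Heat map of log2 CPM (colour scale) in the 9 libraries (columns) for 21 genes called in a comparison (rows), taken from the lists of liver and gut, classical, acinar, duct and endocrine genes. FGG, MUC13 and PCSK1 are above 0 in parental cells alone, CFTR and KCNQ1 in TalaR-M cells alone, and TalaR-M replicate 2 has the highest KRT19 and KRT7.

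The identity of the cells was checked with markers of epithelium and of other cell types. The keratins KRT8 and KRT18 were at 9.18 ± 0.06 and 8.04 ± 0.04 log2 CPM in parental cells (SD, n = 3) and EPCAM at 4.87 ± 0.06, while CDH1 was at 0 in all libraries and VIM at 9.36 ± 0.06. Relative to parental cells, VIM differed by -0.26 in TalaR-M cells (-0.70 without replicate 2) and by -0.37 in TalaR-DF cells, and KRT8 by 1.22 in TalaR-M cells (0.70 without replicate 2), none of them called, although without replicate 2 the adjusted p of each passed the threshold at under 2-fold. Of 10 fibroblast markers 7 were tested and ACTA2, FAP and THY1 were at 0 in all libraries. The most abundant was COL3A1 in every library, and the summed level was 1794.9 to 1867.56 CPM in parental cells, 3407.58, 1225.37 and 3349.57 in TalaR-M replicates 1 to 3 and 912.401 to 1028.09 in TalaR-DF cells. Between TalaR-M and parental cells COL1A1 and DCN were called higher and COL1A2, LUM, PDGFRA and PDGFRB lower (5.53% and 7.72% of all genes). DCN was at 0 in all parental and TalaR-DF libraries and passed the filter through TalaR-M cells alone. Its calls are therefore a description and cannot be read against the shares over all genes. COL1A2 was at 7.86 in parental cells, 3.77 in TalaR-DF cells and 0 in TalaR-M cells, and COL1A1 at 6.50, 3.82 and 8.47. Between TalaR-DF and parental cells 0 were called higher and 4 lower, COL1A2, PDGFRB, COL1A1 and LUM (2.25% and 7.49% of all genes). Between TalaR-M and TalaR-DF cells COL1A1 and DCN were called higher and COL1A2, LUM and PDGFRA lower (5.29% and 1.64% of all genes). When TalaR-M replicate 2 was left out, the fibroblast counts became 3 higher and 4 lower, 0 and 4, and 3 and 2 in these comparisons. COL3A1 was added as higher in both comparisons of TalaR-M cells, and PDGFRA was lost at -0.95 against TalaR-DF cells. Over all genes, 13.9%, 11.4% and 8.36% were then called in either direction, in the same order. Leukocyte genes summed to 14.8 to 18.0 CPM in parental cells and 1.18 to 7.11 in TalaR cells. CD14, their most abundant gene in parental cells, was called lower in both TalaR groups, where 7.72% (TalaR-M) and 7.49% (TalaR-DF) of all genes were. CSF1R, also called lower in both, was at 0 in all TalaR libraries and passed the filter through parental cells alone. Its calls are a description and cannot be read against these shares. PTPRC, the pan-leukocyte marker, was at 0 in parental cells and at 1.79, 0 and 0.83 log2 CPM in TalaR-M replicates 1 to 3, where it was called higher than in parental cells without replicate 2, and CD3E, LYZ, CD68 and ITGAM were at 0 in all libraries. Endothelial genes summed to 28.9 to 32.1 CPM in parental cells and 2.92 to 10.3 in TalaR cells, with VWF and CLDN5 at 0 in all libraries. Of 3 tested, KDR and PECAM1 were called lower in both TalaR groups, beside 7.72% (TalaR-M) and 7.49% (TalaR-DF) of all genes. KDR was at 0 in all 3 TalaR-DF libraries. Its calls in comparisons with TalaR-DF cells are therefore a description and cannot be read against the shares over all genes. KDR was at 0 in TalaR-M replicate 2, and its difference between TalaR-M and parental cells was -2.38 with and -1.63 without that replicate; without it KDR was also called higher in TalaR-M than in TalaR-DF cells. Of the 8 epithelial and mesenchymal genes 7 were tested. CDH2 was called higher in both TalaR groups (1.98, or 2.43 without TalaR-M replicate 2, and 2.91), and EPCAM and KRT19 in TalaR-M cells. Over all genes tested, 5.53% were called higher for TalaR-M cells and 2.25% for TalaR-DF cells. Among leukocyte and endothelial genes, CD14 and PECAM1 were called lower in both TalaR groups with all libraries, as was FOXA2. KDR was also called lower in both, but at 0 in all TalaR-DF libraries it could be called only lower there. CSF1R and HNF4A were detected in parental cells alone and could be called only lower, so their direction is a description. CDH2 was called higher in both TalaR groups, and fibroblast genes were called in both directions in TalaR-M cells. The part of these markers in the results on the factors was not tested.

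For each of the 3 factors with the widest range of group means, the other genes most like it over the 9 libraries were listed. The libraries of a group share their treatment, so these values are a description of groups more than of 9 independent samples. FOXA2 was followed most closely by PHC2, a Polycomb protein (Pearson r = 0.998), SYN1, a synaptic protein (0.995), and EGLN3, an oxygen-sensing hydroxylase (0.995). HNF4A was followed by TMEM233, CTSS and TRIL (each 1.00), which were likewise at 0 in all TalaR libraries. Of 12464 genes, 150 had an r above 0.95 with FOXA2 and 79 with FOXA1. The count for HNF4A, 365, cannot be set against these. A gene detected in parental cells alone follows HNF4A through the limit of 1 CPM. FOXA1 was followed by PKP2, a desmosome protein (0.994), MID1 (0.993) and CPED1 (0.988). PKP2 had means of 2.45 log2 CPM in parental cells, 5.19 in TalaR-M and 4.99 in TalaR-DF cells, a pattern close to that of FOXA1 at a higher level.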

How the data were processed

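RNA was sequenced from 9 PSN1 libraries, and the authors deposited log2 values of CPM in which the smallest value is 0; the values behave as log2 CPM with values under 1 CPM set to 0. Per the submitters' processing notes the genome build was hg38, and the aligner, counter and annotation are not given in the sources used here. The columns named for maintained and withdrawn drug were read as those of TalaR-M cells and TalaR-DF cells, in that order. Reads were recovered from the CPM steps (all values under 50 CPM were whole within 0.05 reads) and used only to give depth, and 1 CPM stands for 6.97 to 14.54 reads, depending on the library.

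Genes above 1 CPM in at least 3 of 9 libraries were fitted in limma 3.58.1 (R 4.3.3) with 1 model over the 3 groups, a trend in the moderated variance, and Benjamini-Hochberg adjustment over all genes tested. The procedure was tested on simulated data, in which only genes well above 1 CPM in parental cells were changed and no library deviated. That test therefore does not cover genes near 1 CPM or a library like TalaR-M replicate 2. Levels between genes were divided by the length of the canonical GENCODE transcript, and promoters came from RefSeq. Alternatives changed the scaling, filter, pseudocount, trend, weights, samples and fold threshold. Named genes are the 9 factors, the genes called in each list (those with the largest changes where many were called) and, for 3 factors, the 3 genes most like them; GATA2, PRSS3, VIM, CDH1, KRT8, KRT18, PTPRC, GLIS3, PAX6, SLC4A4, SCG5 and the markers at 0 were named after their values were seen. The factors and lists were chosen with earlier results of these data known. Other samples of the series were not analysed here.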

Additional observations from a re-analysis of the deposited data

How the results depend on the processing

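Over 17 alternatives, the 19 results on single factors gave 321 values, of which 299 kept the direction and the side of the threshold, 10 lost the call, 2 gained it and 10 turned in direction. The falls of FOXA2 and the rise of FOXA1 in TalaR-M cells kept their calls in all of them. Rescaling by the median ratio moved the median of all genes from -0.09 to 0.05 between TalaR-M and parental cells and from -0.09 to 0.08 between TalaR-M and TalaR-DF cells, and turned GATA6 between TalaR-M and parental cells to 0.070 and SOX9 between TalaR-M and TalaR-DF cells to 0.051. Array weights turned the same results to 0.035 and 0.17 and took FOXA3 in TalaR-M cells to 0.97, under 2-fold. Leaving out 1 library at a time gave GATA4 between -0.11 and 0.40 and GATA6 between -0.19 and 0.057 for TalaR-M against parental cells, and SOX9 between -0.35 and 0.18 and FOXA1 between -0.040 and 0.67 for TalaR-M against TalaR-DF cells. The factors called between TalaR-M and TalaR-DF cells fell from 2 to 1, with FOXA3 lost, with array weights, with only the 2 groups in the fit, or with a minimum of 5 CPM, which FOXA3 did not reach, and numbered 1 to 2 with 1 library left out. The genes called between TalaR-M and TalaR-DF cells numbered 484 with only these 2 groups against 864, and with no fold threshold 2938, 2315 and 1502 genes were called in the comparisons of TalaR-M with parental, TalaR-DF with parental and TalaR-M with TalaR-DF cells. The cause of these changes was not tested, except that fewer samples or genes entered some fits.

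With the replicate number as a block, 1546, 1132 and 750 genes were called against 1653, 1214 and 864 without it, and 4, 3 and 2 factors, so the block changed no call of a factor. Same-numbered libraries of different groups deviated from their group means with correlations between -0.311 and 0.158, so the numbers were not taken to pair the samples. Depth limits FOXA1 in parental cells and FOXA2 and FOXA3 in TalaR-M cells, which rest on 20 to 37 reads per library.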
